A study of Mus musculus with 10 samples.

Results

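The chemokine system of mouse epididymal fat was described from 59 genes, namely every protein-coding row of the count table, out of 26040 rows, whose GENCODE vM21 symbol begins with Ccl, Cxcl, Ccr or Cxcr and a digit, together with Cx3cl1, Cx3cr1, Xcl1, Xcr1 and the atypical receptors Ackr1, Ackr2, Ackr3 and Ackr4. Of the 59, 45 had 10 or more counts in at least 5 of the 10 libraries, 28 of them ligands and 17 receptors, and these enter the counts given here. Total RNA of epididymal white adipose tissue, the visceral fat pad beside the epididymis of male mice, was sequenced from 5 mice with Sucnr1 lost in adipocytes (Ad-Sucnr1 KO) and 5 floxed controls (Sucnr1fl/fl), all of strain C57BL/6. Sucnr1 encodes the cell-surface receptor for succinate, and the study asked what its depletion does to gene expression in this tissue. The sources used here do not name the Cre driver, and age, diet and time of collection are not given there. Libraries are called by genotype and by the number in their title (2 to 6).

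Chemokines are small secreted proteins that guide the movement of leukocytes along gradients, and they are grouped by the spacing of the first cysteines of the mature protein. They act through receptors of the G protein-coupled family, while atypical receptors bind and remove chemokines without classical signalling. In fat, macrophages, endothelium, mesothelium and stromal progenitors all make chemokines, and Ccl2 with its receptor Ccr2 is best known for bringing monocytes into the fat of obese mice.

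The class-defining cysteine codons of 4 ligands are shown because they are what the names CC, CXC and CX3C refer to. Each line gives 45 bases of coding sequence from the GENCODE vM21 transcripts (build mm10), 5′ to 3′, with the cysteine codons in capitals. No codon separates the pair in Ccl2, 1 separates it in Cxcl16 and Cxcl12, and 3 separate it in Cx3cl1.
Ccl2, chr11:82036494-82036538, plus strand: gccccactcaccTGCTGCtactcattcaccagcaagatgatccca
Cxcl16, chr11:70459103-70459147, minus strand: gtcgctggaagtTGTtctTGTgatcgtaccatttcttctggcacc
Cxcl12, chr6:117171496-117171540, plus strand: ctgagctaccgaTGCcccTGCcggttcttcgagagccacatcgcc
Cx3cl1, chr8:94778039-94778083, plus strand: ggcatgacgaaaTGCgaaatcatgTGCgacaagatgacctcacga

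Total counts ranged from 24182798 to 30603326 per library, and levels are given as CPM, counts divided by the scaled library size and put on one common scale. Sucnr1 stood at 2.05 to 4.67 CPM in the knockouts and at 38.0 to 75.9 CPM in controls, so the targeted gene followed the labels. Several libraries held RNA of neighbouring or other tissues. Crisp1, an epididymal secretory protein gene, reached 8572 CPM in control 6, 3574 in knockout 3 and 2715 in control 3. Akr1b7, abundant in the vas deferens, reached 5106 CPM in control 3 and 807.5 CPM in control 2. Its level was at most 13.9 CPM in every other library, all 5 knockouts included. Alb, the liver albumin gene, reached 4310 CPM in knockout 6. In whole tissue, fewer cells of a type and less RNA per cell cannot be told apart. The labels give 5 mice per group and nothing on litters or cages, so p-values measure the spread between these samples.

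No chemokine or receptor passed the test between genotypes. With edgeR's quasi-likelihood test, 0 of the 44 members tested had a Benjamini-Hochberg adjusted p under 0.05, where 10 of all 16446 genes tested did (0.0608%, with 0.0243% higher and 0.0365% lower in knockouts). At an unadjusted p under 0.05 there were 2 members, Cxcl16 and Cx3cr1, both lower in the knockout group, where 10.1% of all genes had such a p and 4.77% had one with a lower level in knockouts. The threshold was passed by 0 members with limma-voom and by 1, Cxcl16, with DESeq2, which called 1.36% of the genes it tested. Cxcl2 was reported but had too few counts to be tested. Of the 44 members, 30 had a fitted fold change below 0 and 14 above it, with a median log2 fold change of -0.10. Ccl21a and Ccl21b, near-identical copies that cannot be read as separate genes, are both among the 30. Over all genes tested, 55.2% were below 0 and the median was -0.03. The counts over members are a description, since a member enters them by being detected. Ccl3 reached 10 counts in all 5 knockout libraries but in 2 controls, and so met the reporting minimum through the knockout group alone.

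**Figure D1:**
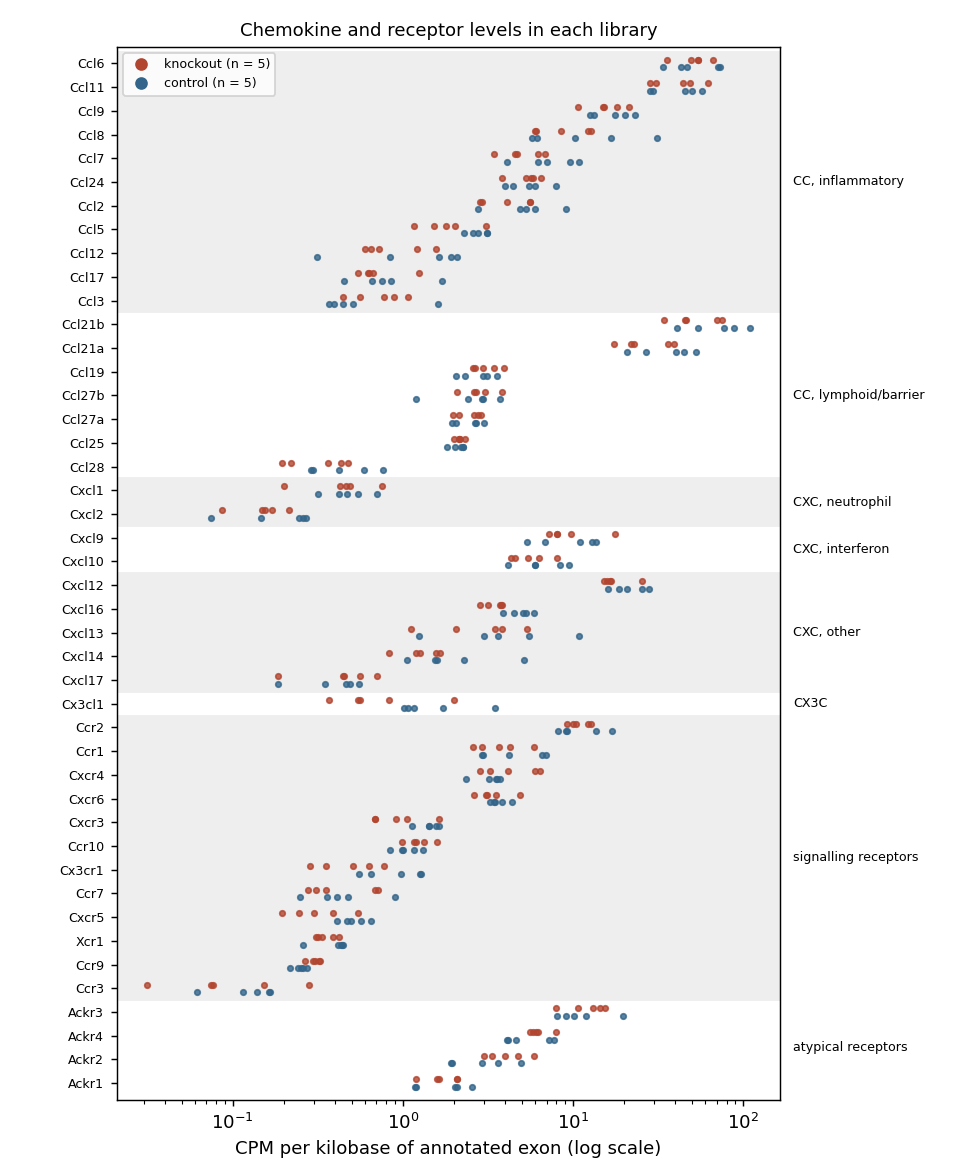
Level of 44 reported members in each library, in CPM per kilobase of annotated exon on a log axis; each point is 1 library, red for knockout and blue for control, and members are grouped by role. The level runs along the horizontal axis, where Ccl21b, Ccl6 and Ccl11 have the highest means and Ccr3 and Cxcl2 the lowest. The points of the 2 genotypes overlap for every member drawn but Cxcl16.

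The levels spanned a wide range. Divided by exon length, the mean over all libraries was 64.2 CPM per kilobase for Ccl21b, 52.9 for Ccl6, 42.6 for Ccl11, 32.4 for Ccl21a, 19.9 for Cxcl12 and 16.7 for Ccl9, and it was 0.126 CPM per kilobase for Ccr3, the lowest of the 45. Among receptors the highest were Ackr3 at 12.1 and Ccr2 at 11.2 CPM per kilobase. In plain CPM, without regard to length, Cxcl12, Ccl6, Ccr2 and Ccl9 together held 50.4% of the summed level of the reported members. In the plot of levels by library, knockout and control points of a member lie close together beside this range.

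Cxcl16 was the only member whose groups did not overlap, which 1.91% of all tested genes also did. It encodes a transmembrane and secreted ligand of Cxcr6 made by macrophages, dendritic cells and endothelium. Its level was 11.6, 9.55, 8.63, 11.3 and 11.3 CPM in knockout libraries 2 to 6 and 13.6, 17.8, 15.3, 16.02 and 11.8 CPM in controls 2 to 6. The gap was narrow: the highest knockout library stood at 11.63 CPM and the lowest control, library 6, at 11.78. The means were 10.5 ± 1.3 CPM in knockouts and 14.9 ± 2.3 CPM in controls (SD, n = 5 each), from 240 to 463 counts per library. On the log2 scale the fitted fold change was -0.51 (SE 0.13, 95% interval -0.80 to -0.22, edgeR adjusted p = 0.36). DESeq2 called it (adjusted p = 0.0402), and its sign was negative in all 20 alternative fits, with log2 fold changes of -0.59 to -0.44.

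Cxcl16 (ENSMUSG00000018920) lies on the minus strand of chromosome 11 from 70453983 to 70459984 (mm10). On the opposite strand, exons of Zmynd15 cover 552 bases or 18.3% of its exon length, and whether the authors' counting used strand is not given in the sources used here. Zmynd15 stood at 3.42 CPM in knockouts and 3.86 CPM in controls. Cxcr6, the Cxcl16 receptor of tissue-resident T cells, had 6.68 ± 1.69 CPM in knockouts and 7.08 ± 0.85 CPM in controls (SD, n = 5 each; log2 fold change -0.08, 95% interval -0.46 to 0.29).

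**Figure D2:**
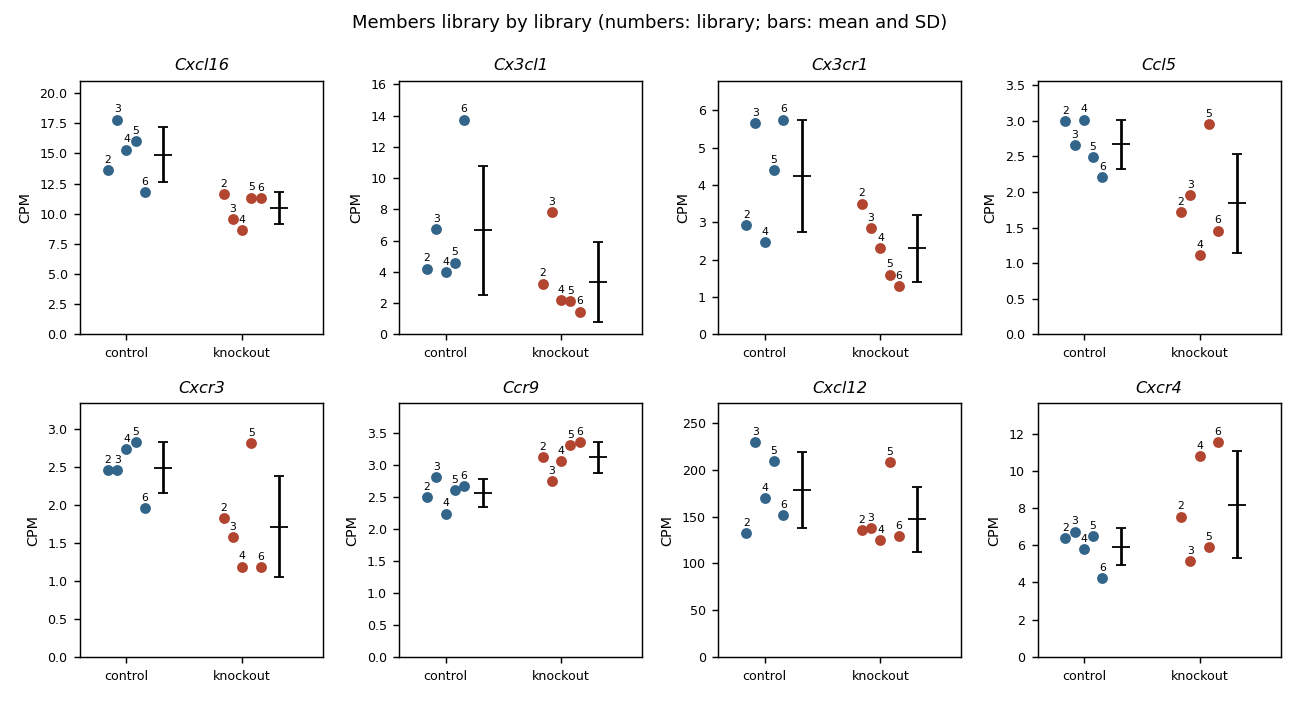
CPM of 8 members in every library, controls in blue and knockouts in red, with the library number beside each point and bars for mean and SD (n = 5). The groups stand apart for Cxcl16 by the small gap between 11.63 and 11.78 CPM, and overlap for the other 7; knockout 5 is the highest knockout for Ccl5, Cxcr3 and Cxcl12.

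The fractalkine pair had the 2 largest fitted fold changes among the 44 tested members, neither of them past the adjusted threshold. Cx3cl1 encodes fractalkine, a membrane-bound adhesion molecule and chemoattractant of endothelium and epithelium, and Cx3cr1 encodes its receptor on monocytes and macrophages. Cx3cl1 stood at 3.26, 7.81, 2.19, 2.13 and 1.46 CPM in knockout libraries 2 to 6 and at 4.21, 6.73, 4.01, 4.60 and 13.7 CPM in controls 2 to 6. Knockout 3 lay above 4 of the 5 controls, so the groups overlapped. The log2 fold change was -0.98 (SE 0.51, 95% interval -2.12 to 0.16, edgeR adjusted p = 0.534). The highest libraries, control 6, knockout 3 and control 3, were also those with the most Crisp1, and the part of epididymal RNA in the level of Cx3cl1 was not tested. Leaving out knockout 3 and control 6, which was decided with the data in view, gave -1.11 (edgeR adjusted p = 0.308). Without controls 3 and 6 it was -0.35, without knockout 3 alone -1.56 and without control 6 alone -0.54.

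Cx3cr1 stood at 3.50, 2.84, 2.30, 1.60 and 1.29 CPM in knockout libraries 2 to 6 and at 2.93, 5.65, 2.48, 4.41 and 5.75 CPM in controls 2 to 6. Controls 3, 5 and 6 lay above all knockouts, and controls 2 and 4 within their range. The log2 fold change was -0.88 (SE 0.33, 95% interval -1.62 to -0.14, edgeR unadjusted p = 0.0249, adjusted p = 0.451), and it was -0.51 without controls 3 and 6. The gene lies on chromosome 9 from 119901616 to 120069879, minus strand.

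Among the CC chemokines that inflammation induces, 11 were tested, with 9 below 0 and 2 above 0, none called, and a median log2 fold change of -0.25. Ccl5 (RANTES), a product of T and NK cells, came nearest to the threshold. It stood at 1.72, 1.95, 1.11, 2.95 and 1.46 CPM in knockout libraries 2 to 6 and at 2.996, 2.65, 3.01, 2.49 and 2.21 CPM in controls 2 to 6. All knockouts but library 5 lay below all controls, and the log2 fold change was -0.54 (SE 0.25, 95% interval -1.10 to 0.02, edgeR adjusted p = 0.50). With 1 library left out it ran from -0.78, without knockout 5, to -0.40, without knockout 4.

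The monocyte attractants on chromosome 11 overlapped between the groups. Ccl7, a ligand of Ccr2, stood at 3.68, 3.77, 2.77, 5.51 and 4.98 CPM in knockout libraries 2 to 6 and at 4.98, 5.65, 8.65, 7.73 and 3.26 CPM in controls 2 to 6, overlapping through controls 2 and 6, which lay below knockout 5 (log2 fold change -0.55, SE 0.28, edgeR adjusted p = 0.526). Ccl2, the principal monocyte attractant, had 4.78 ± 1.54 CPM in knockouts and 6.39 ± 2.63 CPM in controls (SD, n = 5 each). Its highest library was control 4 at 10.4 CPM and its lowest control 6 at 3.15 CPM, and the 95% interval of its log2 fold change ran from -1.13 to 0.29. Ccl12, a mouse ligand of Ccr2 on the same stretch, was at 0.168 to 1.12 CPM. Ccl8, another attractant of this cluster, stood at 15.96 CPM in control 3 and at 2.94 to 8.56 CPM elsewhere. Its log2 fold change was -0.62 over all libraries, -0.10 without control 3, and 0.30 without controls 3 and 6.

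The macrophage-expressed mouse chemokines Ccl6 and Ccl9, ligands of Ccr1, were abundant and overlapped between genotypes. Ccl6 stood at 97.2, 64.2, 89.3, 97.6 and 119 CPM in knockout libraries 2 to 6 and at 77.4, 128, 132, 84.2 and 61.2 CPM in controls 2 to 6. Ccl9 stood at 45.7, 32.5, 46.1, 55.2 and 64.9 CPM in knockout libraries 2 to 6 and at 40.5, 62.0, 70.8, 53.9 and 38.1 CPM in controls 2 to 6. In both, control 4 was the highest library, while the lowest was control 6 for Ccl6 and knockout 3 for Ccl9. The log2 fold changes were -0.05 (95% interval -0.57 to 0.47) and -0.12 (95% interval -0.60 to 0.36).

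The eotaxins Ccl11 and Ccl24, which attract eosinophils through Ccr3, also overlapped throughout. Ccl11, made by stromal cells, stood at 30.6, 33.5, 48.1, 67.4 and 53.1 CPM in knockout libraries 2 to 6 and at 49.0, 31.9, 54.4, 61.8 and 30.7 CPM in controls 2 to 6 (log2 fold change 0.03, SE 0.26). Ccl24 had 7.04 ± 1.28 CPM in knockouts and 7.24 ± 2.02 CPM in controls (SD, n = 5 each). Ccr3 itself was at 0.103 to 0.914 CPM, from 3 to 27 counts per library. Ccl3, a ligand of Ccr1, and Ccl17, a ligand of Ccr4, stayed at or under 1.23 CPM in every library.

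Of the 7 tested CC chemokines of lymphoid or barrier tissue, 4 were above 0 and 3 below, none called. Ccl21, which draws Ccr7-bearing dendritic cells and T cells, is present in several near-identical copies on chromosome 4, and this bears on its values. The coding sequences of Ccl21a and Ccl21b, 402 bases each, are 99.5% identical and differ at 2 bases, and that of the annotated copy Gm13304 equals Ccl21b. The stretch around the first differing base, in capitals, is shown for the 3 (mm10).
Ccl21a, chr4:42773718-42773762, minus strand: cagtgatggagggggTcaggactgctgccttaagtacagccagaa
Ccl21b, chr4:42255923-42255967, plus strand: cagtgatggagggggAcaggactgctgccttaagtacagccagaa
Gm13304, chr4:42115015-42115059, plus strand: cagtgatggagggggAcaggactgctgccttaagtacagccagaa

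All 50-base words of the Ccl21b transcript occur in each of Gm10591, Gm13304 and Gm21541. The deposited counts of Ccl21b and these 3 genes differed by at most 2 counts in any library, for example 395, 395, 394 and 394 in knockout 2, and were equal in 5 libraries. The Ccl21b count was 88.3% to 96.3% of that of Ccl21a. Ccl21a and Ccl21b can therefore not be read as separate genes, and their levels per kilobase, among the highest of all members, are uncertain. Ccl21a stood at 15.2, 31.6, 19.2, 19.8 and 34.0 CPM in knockout libraries 2 to 6 and at 35.3, 46.2, 39.1, 23.5 and 18.1 CPM in controls 2 to 6 (log2 fold change -0.44, SE 0.30, edgeR adjusted p = 0.626). Ccl21b stood at 13.8, 28.2, 18.5, 18.4 and 30.2 CPM and at 31.2, 44.1, 35.6, 21.8 and 16.5 CPM in the same order. The groups overlapped, with control 6 below 4 of the 5 knockouts for Ccl21a.

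Ccl19, the other ligand of Ccr7, had 2.70 ± 0.50 CPM in knockouts and 2.43 ± 0.53 CPM in controls (SD, n = 5 each). It shares 52.0% of its 50-base words with Gm2564, so its count is uncertain too. Ccl25, the ligand of the gut-homing receptor Ccr9, was the steadiest member, from 13.5 to 17.3 CPM, with a log2 fold change of 0.03 and a 95% interval of -0.15 to 0.21. The skin and mucosal chemokines were low: Ccl27a at 4.61 to 7.15 CPM, Ccl27b, which shares 98.1% of its words with Gm13306, at 0.505 to 1.62 CPM, and Ccl28 at 0.946 to 3.69 CPM.

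The neutrophil attractants among the members, which act through Cxcr2, were close to absent. Cxcl1 stood at 0.377 to 1.42 CPM in knockouts and 0.596 to 1.31 CPM in controls, and Cxcl2 at 0.180 to 0.440 and 0.154 to 0.561 CPM. Cxcl3, Cxcl5 and Cxcl15 did not reach the reporting minimum, with at most 4, 9 and 2 counts in a library. Their receptors Cxcr1 and Cxcr2 reached at most 1 and 9 counts.

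The interferon-induced chemokines Cxcl9 and Cxcl10, which draw T and NK cells through Cxcr3, were well above these. Cxcl9 stood at 21.7 to 53.3 CPM in knockouts and 16.3 to 41.4 CPM in controls, with means of 30.6 ± 13.0 and 30.2 ± 11.1 CPM (SD, n = 5 each; log2 fold change 0.02, 95% interval -0.69 to 0.74). Cxcl10 stood at 9.75 to 18.2 CPM and 9.29 to 21.3 CPM, with a log2 fold change of -0.24 (95% interval -0.78 to 0.30). Both were lowest in control 6. Exons of Art3, which stood at 320 CPM in knockouts and 284 CPM in controls, cover 5.91% of the Cxcl10 exon length on the other strand.

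The 250 bases before the RefSeq start sites of the 2 genes (GRCm38.p6, both on the minus strand of chromosome 5) are shown because these promoters are the textbook case of induction through NF-κB and interferon-activated factors. Capitals mark matches on either strand to the κB pattern (GGGA, any 4 bases, CC) or the interferon response pattern (GAAA, any 2 bases, GAAA). Cxcl10 holds 2 matches to the first and 1 to the second, and Cxcl9 holds 1 to the first.
Cxcl10, chr5:92348890-92349139: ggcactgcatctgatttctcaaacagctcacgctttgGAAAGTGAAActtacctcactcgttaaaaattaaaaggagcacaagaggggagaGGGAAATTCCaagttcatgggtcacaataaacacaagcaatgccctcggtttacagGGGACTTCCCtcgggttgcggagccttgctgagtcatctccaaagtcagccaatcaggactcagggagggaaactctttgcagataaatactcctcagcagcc
Cxcl9, chr5:92328080-92328329: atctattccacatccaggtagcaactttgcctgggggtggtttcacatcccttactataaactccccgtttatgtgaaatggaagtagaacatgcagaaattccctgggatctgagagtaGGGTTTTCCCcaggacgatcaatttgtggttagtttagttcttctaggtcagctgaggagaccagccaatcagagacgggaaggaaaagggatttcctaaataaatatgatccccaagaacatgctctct

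A promoter was in the RefSeq table for 34 of the 45 reported members. In the windows of 300 bases around the start site, 20.7% of all 32841 promoters held the κB pattern and 3.44% the interferon response pattern. Of the 34 members' promoters, 12 held the first and 3 the second. A match is a description of letters and not of binding.

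The remaining CXC ligands included the most abundant member in CPM. Cxcl12, a stromal chemokine that retains blood cell precursors and guides lymphocytes, stood at 136, 137, 125, 208 and 129 CPM in knockout libraries 2 to 6 and at 132, 229.8, 169.7, 209.5 and 152 CPM in controls 2 to 6. Knockout 5 stood apart from the other knockouts, and knockouts 2, 3 and 5 lay inside the control range. The log2 fold change was -0.28 (SE 0.19, 95% interval -0.69 to 0.14, edgeR adjusted p = 0.618). Cxcl14, an epithelial and adipose chemokine, stood at 1.51, 2.19, 3.02, 2.31 and 2.88 CPM in knockout libraries 2 to 6 and at 4.17, 9.38, 2.84, 1.92 and 2.91 CPM in controls 2 to 6. Its log2 fold change of -0.83 (SE 0.41, edgeR adjusted p = 0.519) became -0.32 without control 3. Controls 3 and 2, its highest libraries, were also those with the most Akr1b7. The part of vas deferens RNA in the level of Cxcl14 was not tested. Cxcl13, the B cell attractant, reached 12.4 CPM in control 4 and 1.28 to 6.38 CPM elsewhere, and its log2 fold change went from -0.62 to -0.09 without control 4. Cxcl17, a mucosal chemokine, was at 0.140 to 0.539 CPM.

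**Figure D3:**
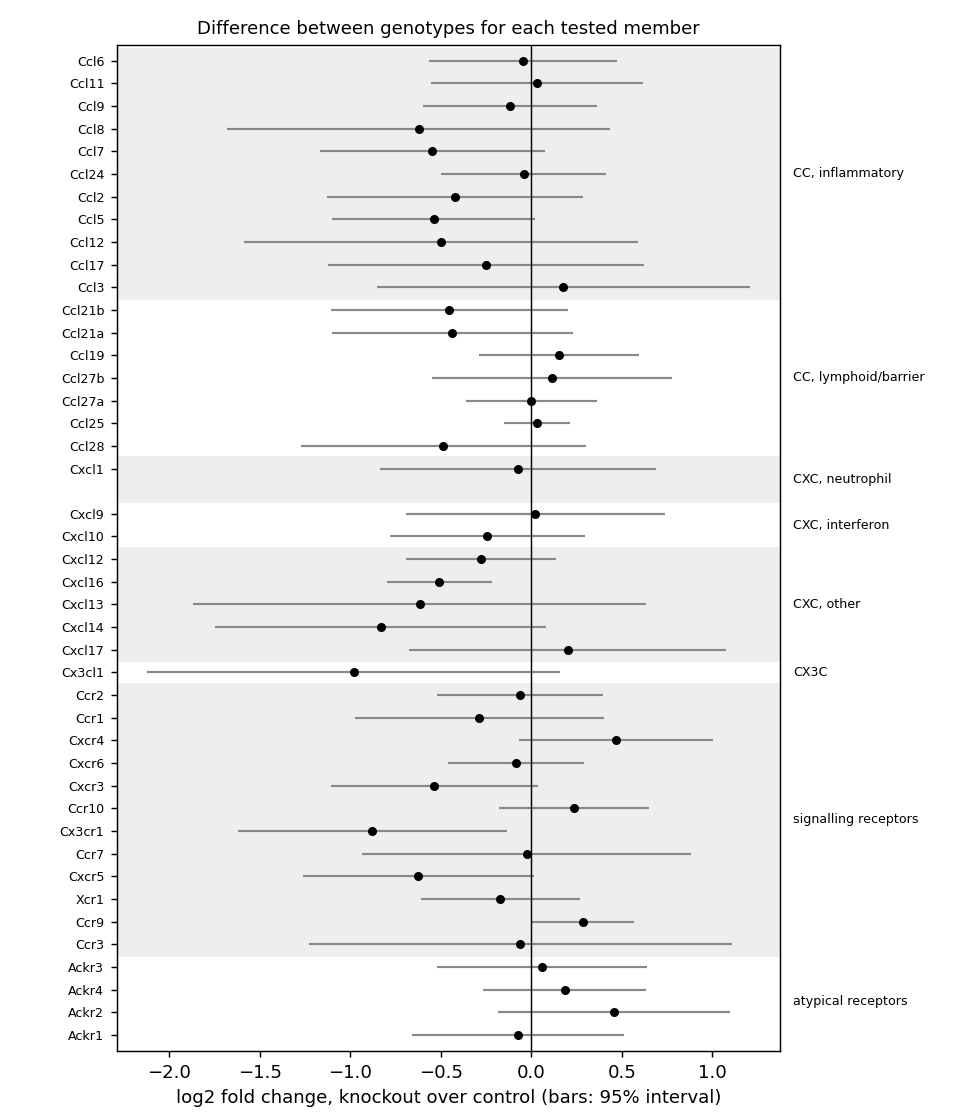
Fitted log2 fold change of 43 tested members, knockout over control, with its 95% interval from edgeR's quasi-likelihood fit, grouped by role; Cxcl2 was not tested. The intervals of Cxcl16 and Cx3cr1 lie below 0 and all others drawn include 0, before any adjustment for the number of genes.

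Of the 13 signalling receptors tested, 10 were below 0 and 3 above 0, none called, with a median log2 fold change of -0.08. Ccr2, the receptor of inflammatory monocytes, was the highest of them, at 74.1 ± 10.6 CPM in knockouts and 77.3 ± 25.7 CPM in controls (SD, n = 5 each; log2 fold change -0.06, 95% interval -0.52 to 0.40). Control 3 was its highest library at 115 CPM. Ccr1, on macrophages and neutrophils, had 10.9 ± 3.7 CPM in knockouts and 13.4 ± 5.4 CPM in controls (SD, n = 5 each).

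Lymphocyte receptors lay on either side of 0, and of these Cxcr3 and Cxcr5 were below it without passing the test. Cxcr3, the receptor for Cxcl9 and Cxcl10 on activated T and NK cells, stood at 1.82, 1.58, 1.19, 2.81 and 1.19 CPM in knockout libraries 2 to 6 and at 2.46, 2.46, 2.73, 2.83 and 1.96 CPM in controls 2 to 6. Knockout 5 again lay among the controls and the other knockouts below all of them (log2 fold change -0.54, SE 0.26, edgeR adjusted p = 0.507). Cxcr5, the Cxcl13 receptor of B cells, stood at 1.30, 0.822, 0.647, 0.996 and 1.83 CPM in knockout libraries 2 to 6 and at 2.15, 1.88, 1.56, 1.66 and 1.37 CPM in controls 2 to 6 (log2 fold change -0.62, SE 0.29, edgeR adjusted p = 0.498). Here knockout 6 was the library inside the control range. Exons of Bcl9l cover 3.30% of the Cxcr5 exon length on the other strand.

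The summed level of 6 T and NK cell markers (Cd3e, Cd3g, Cd8a, Cd4, Ncr1 and Nkg7) was 5.97 to 7.33 CPM in knockouts 2, 3, 4 and 6, 14.1 CPM in knockout 5, and 8.73 to 10.5 CPM in controls. Knockout 5, which lay among the controls for Ccl5 and Cxcr3, thus had the highest sum of these markers. It was the highest library for Cd3g and Nkg7, while other libraries were highest for Cd3e, Cd8a, Cd4 and Ncr1. The part of this marker RNA in the levels of Ccl5 and Cxcr3 was not tested. All 6 of these markers had a fitted fold change below 0 and none was called. Beside Cxcr5, the B cell marker Cd79a was at 1.35 to 2.23 CPM in knockouts 2 to 5, 4.502 CPM in knockout 6 and 2.48 to 3.23 CPM in controls. Ms4a1, another, was at 1.99 to 3.13, 6.06 and 3.20 to 5.08 CPM in the same order. Knockout 6 was the highest library for both, and their part in the level of Cxcr5 was not tested.

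Cxcr4 and Ccr9 were above 0. Cxcr4, the signalling receptor for Cxcl12, stood at 7.53, 5.14, 10.8, 5.90 and 11.5 CPM in knockout libraries 2 to 6 and at 6.36, 6.73, 5.78, 6.48 and 4.24 CPM in controls 2 to 6. Knockouts 2, 4 and 6 lay above all controls, and knockouts 3 and 5 within their range (log2 fold change 0.47, SE 0.24, 95% interval -0.07 to 1.00, edgeR adjusted p = 0.531). Ccr9, the Ccl25 receptor, stood at 3.12, 2.74, 3.06, 3.31 and 3.35 CPM in knockout libraries 2 to 6 and at 2.49, 2.81, 2.23, 2.60 and 2.67 CPM in controls 2 to 6. Knockout 3 and control 3 were the only libraries to overlap, and the log2 fold change was 0.28 (SE 0.13, edgeR unadjusted p = 0.0505, adjusted p = 0.494). The Ccr9 count rests on 63 to 99 reads per library over a long annotated exon length, 18.8% of which lies opposite exons of AC165425.1.

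Of the other receptors, Ccr7 had 0.927 ± 0.424 and 0.945 ± 0.489 CPM, Ccr10 2.16 ± 0.39 and 1.83 ± 0.31 CPM, and Xcr1, the receptor of cross-presenting dendritic cells, 1.57 ± 0.22 and 1.77 ± 0.35 CPM in knockout and control libraries (SD, n = 5 each). The receptors Ccr4, Ccr6 and Ccr8 and the ligands Ccl1, Ccl4, Ccl20, Ccl26 and Xcl1 fell under the reporting minimum. Their highest counts in a library were 20, 12, 7, 2, 16, 1, 6 and 10 in that order. Ccr1l1, a receptor-like gene, had at most 4 counts. Ccl22 and Cxcl11 were not analysed here.

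Atypical receptors were well represented, with 3 of 4 above 0 and none called. Ackr3, which takes up Cxcl12, had 41.2 ± 10.01 CPM in knockouts and 39.5 ± 15.7 CPM in controls. Ackr4, which takes up Ccl19, Ccl21 and Ccl25, had 34.1 ± 5.2 and 30.0 ± 9.5 CPM, and lies opposite Acad11, whose exons cover 8.90% of its exon length and which stood at 394 and 314 CPM. Ackr1, the venular Duffy receptor, had 2.42 ± 0.53 and 2.54 ± 0.85 CPM, and shares 20.4% of its 50-base words with the overlapping gene Cadm3 (all SD, n = 5 each). Ackr2, a scavenger of inflammatory CC chemokines, stood at 12.5, 9.38, 10.5, 14.8 and 18.6 CPM in knockout libraries 2 to 6 and at 9.12, 6.00, 15.4, 11.3 and 6.10 CPM in controls 2 to 6. Its log2 fold change of 0.46 (SE 0.29, edgeR adjusted p = 0.599) was 0.13 without controls 3 and 6, which had its lowest levels.

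Single libraries stood high or low for many members at once. Control 3 and control 4 were each the highest library for 12 of the 45 reported members, and control 6 was the lowest for 10 and knockout 2 for 8. The summed level of the reported members was 651, 621, 683, 862 and 804 CPM in knockout libraries 2 to 6 and 678, 962, 926, 829 and 616 CPM in controls 2 to 6. Both Ccl21a and Ccl21b are in this sum. Control 3 also had the highest summed level of 7 macrophage markers (1042 CPM), and control 6 the lowest (591 CPM). The range of those markers was 595 to 865 CPM in the knockout group. Ptprc, carried by all leukocytes, was at 72.6 to 133 CPM in knockouts and 75.8 to 116 CPM in controls. Endothelial markers (Pecam1, Cdh5, Cldn5 and Vwf) summed to 354 to 464 CPM in knockouts and 392 to 709.9 CPM in controls, with all 4 below 0. Of these, Cldn5, a tight junction protein gene, did not overlap between the groups, at 32.9 ± 5.0 CPM in knockouts and 75.4 ± 18.4 CPM in controls (SD, n = 5 each; log2 fold change -1.20, edgeR adjusted p = 0.103). Pecam1 was at 129.9 ± 12.1 and 164.8 ± 30.8 CPM, with overlap (edgeR adjusted p = 0.444). Endothelium is among the known sources of Cxcl16 and Cx3cl1. The part of these cells in the member levels was not tested.

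Genes that handle or transmit chemokine signals were likewise not called. Of 28 such genes tested, outside the members, 7 were above 0 and 21 below (median log2 fold change -0.12). The smallest p belonged to Ppbp, a platelet CXC chemokine (1.29 ± 0.52 CPM in knockouts and 3.05 ± 1.51 in controls), Ccrl2, a chemerin-binding receptor (3.55 ± 0.80 and 5.15 ± 1.01 CPM), and Rgs2, a brake on G protein signalling (44.6 ± 19.0 and 23.3 ± 10.96 CPM; SD, n = 5 each). The edgeR adjusted p-values were 0.432, 0.436 and 0.49. Of 19 tested inducers of chemokine genes and factors of their signalling, inhibitors included, 6 were above 0 and 13 below, none called. Nfkbia, the inhibitor of NF-κB that NF-κB itself induces, had 66.0 ± 12.4 CPM in knockouts and 46.3 ± 6.0 in controls (edgeR adjusted p = 0.364). Tnf had 0.419 ± 0.180 and 0.907 ± 0.312 CPM, and Il1b 0.621 ± 0.124 and 0.961 ± 0.155 CPM (SD, n = 5 each; edgeR adjusted p = 0.432 and 0.436). Knockout and control libraries overlapped for each of these 3 genes. Tnf rested on 5 to 39 counts per library and Il1b on 14 to 31.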

How the data were processed

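Total RNA libraries from 10 mice were made with a stranded kit, per the labels' protocols. The values deposited by the authors are raw counts per Ensembl gene with no normalization. STAR 2.5.2 and mm10 are named, per the submitters' processing notes. For the counting program, annotation and strand setting, nothing is given in the sources used here. Columns were matched to samples by title and groups taken from the condition label.

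The test was run in edgeR 4.0.16 under R 4.3.3: filterByExpr (minimum count 10, minimum total 15), TMM scaling and the robust quasi-likelihood test over 16446 genes, with Benjamini-Hochberg adjustment and a threshold of 0.05. Intervals of fold changes are 95% and come from that fit. CPM uses scaled library sizes, and log2 CPM a prior count of 2. No interval for counting error alone is given. GENCODE vM21 supplied symbols, positions and exon lengths, and the RefSeq table (GRCm38.p6) promoters. DESeq2 1.42.0 and limma-voom (limma 3.58.1) were alternatives, with other scalings and filters, a replicate block and libraries left out. The steps were tested on simulated data.

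The members and gene lists were chosen with earlier results of these data known. The level in every library is given for the 12 members with the smallest p, the 6 highest per kilobase and those whose groups do not overlap; no member passed the adjusted threshold or had a library over 5 times the median of the others, which the rule also named. The other reported members are given by group values. The values of 1 member and of some markers are not reported here, though the member stays in the counts. The libraries of the pairs left out were chosen after seeing the data.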

Additional observations from a re-analysis of the deposited data

Results flagged for a closer look

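In each group of 5, the highest and lowest log2 CPM of every reported member were set against the group's range (Dixon's ratio, critical value 0.71), and 4 of 90 groups held a library standing apart, where chance alone gives about 1 in 20 groups. Cxcl12 stood at 208 CPM in knockout 5 and at 125 to 137 CPM in the other knockouts. Xcr1 stood at 1.16 CPM in control 6 and at 1.85 to 1.99 CPM in the other controls. Ccl3 stood at 1.23 CPM in control 3 and at 0.281 to 0.39 CPM in the other controls. Ccl17 stood at 0.643 CPM in knockout 6 and at 0.280 to 0.342 CPM in the other knockouts.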

How the results depend on the processing

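No member was called under 19 of 20 alternatives, and DESeq2 called 1, Cxcl16 (adjusted p = 0.0402); over those alternatives the adjusted p of Cxcl16 ran from 0.0402 to 0.897. The number of members below 0 was 30, and it was 34 with library totals. With 1 library left out it was 25 to 33, of 42 to 44 fitted. Over all genes tested the share below 0 was 55.2%, with 66.9% under library totals and 49.9% without control 6. Genes called in all numbered 10, 211 with DESeq2 and 3 to 18 with 1 library left out (18 without control 6). They numbered 6 without controls 3 and 6, 16 without knockout 3 and control 6, and 4 without knockout 6 and control 3, choices made after seeing the data. Correlations of same-numbered deviations ran from -0.113 to 0.632. Between differently numbered libraries they ran from -0.734 to 0.78. With so wide a spread they cannot decide whether the title numbers pair the samples. The replicate block called 4 genes and 0 members.

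Of the 44 tested members, 25 kept their sign under every alternative that tested them. The sign turned for the following log2 fold changes, none of them called, and the cause was not tested. With library totals, under which the median of all genes was -0.09, Ccl11 was at -0.012, Ccl25 at -0.030, Ccl27a at -0.063 and Cxcl9 at -0.010. With limma-voom Ccr7 was at 0.0035. Without controls 3 and 6, Ackr3 was at -0.089, Ccl11 at -0.25, Ccl19 at -0.048, Ccl8 at 0.30, Ccr2 at 0.035, Ccr3 at 0.12, Ccr7 at 0.17 and Cxcl9 at -0.31. Without knockout 3 and control 6, Ccl3 was at -0.14, Ccr3 at 0.22 and Cxcl9 at -0.064. Without knockout 6 and control 3, Ackr1 was at 0.10, Ackr3 at -0.033, Ackr4 at -0.00060, Ccl11 at -0.12, Ccl27a at -0.028, Ccr2 at 0.14, Ccr7 at 0.12 and Cxcl9 at -0.072.

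With 1 library left out, 15 members turned sign. Their log2 fold changes ran from -0.20 to 0.0735 for Ackr1, -0.055 to 0.33 for Ackr3, -0.15 to 0.17 for Ccl11, -0.42 to 0.12 for Ccl17, -0.14 to 0.12 for Ccl24, -0.019 to 0.060 for Ccl25, -0.075 to 0.077 for Ccl27a and -0.071 to 0.26 for Ccl27b. They ran from -0.18 to 0.093 for Ccl6, -0.24 to 0.0082 for Ccl9, -0.17 to 0.12 for Ccr2, -0.61 to 0.18 for Ccr3, -0.23 to 0.32 for Ccr7, -0.32 to 0.12 for Cxcl1 and -0.28 to 0.16 for Cxcl9. Ccr3, at 3 to 27 counts per library, and Ccl17, at 6 to 25, rest on few reads.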

Other observations

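Most receptors of the set lie on chromosome 9. Of the 17 reported receptors, 11 do, of which 8 were below 0 and 3 above 0, none called. On chromosome 11, Ccl2, Ccl7, Ccl11, Ccl12 and Ccl8 lie between 82035571 and 82116799 and summed to 44.4 to 82.7 CPM in knockouts and 46.6 to 79.8 CPM in controls. Ccl5, Ccl9, Ccl6 and Ccl3 lie between 83525778 and 83649355 and summed to 99.4 to 186 CPM and 102 to 206 CPM.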
